A study of Rattus norvegicus with 132 samples.

Results

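Claudins are membrane proteins whose strands close the gap between neighbouring epithelial cells, and the expression of their genes was described here across irradiated and non-irradiated rat intestine. The rule named 10 junction genes, and the count tables were searched for them by symbol. Rows were found for 9 of them, Cldn1, Cldn2, Cldn3, Cldn4, Cldn7, Cldn8, Cldn15, Cldn23 and Tjp1, out of 21837 genes in all. Ocln, the gene of occludin, has no row under that symbol and was not analysed here.

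Total RNA was taken from the epithelium of the colon and the jejunum in Sprague Dawley rats, in 22 groups of 6. Irradiation was given to the abdomen as 5 fractions of 4 Gy, which the labels place from day 0 to day 4, with tissue collected at day 4 or at day 7. Irradiated rats received compound Kushen powder by mouth, its oral vehicle (water), compound Kushen injection into the peritoneum, its injected vehicle (0.25% Tween-80 with 25 mM HEPES) or no drug at all, and the last are called irradiated untreated here. Non-irradiated rats had no treatment and no collection day in the labels. Powder and injection are herbal preparations that carry the same name; some descriptions call the powder a pill. The labels call the 6 libraries of a group biological replicates but name no rats, and give neither age nor sex. The p-values measure the spread between these libraries.

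Claudins that build pores let small ions and water pass between cells, and sealing claudins restrict that passage. In the intestine, Cldn2 is known as a sodium and water pore of the crypt that rises in inflamed mucosa, and Cldn15 as a sodium pore of the small intestine. Cldn1, Cldn3, Cldn4, Cldn7 and Cldn8 are counted among the sealing claudins, Cldn8 mostly in the distal colon. Cldn23 is known from mouse and human cells as a partner of Cldn3 and Cldn4 in the barrier, and Tjp1 (ZO-1) is the cytoplasmic scaffold that ties the strands to actin.

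Library totals ran from 17.2 to 19.8 M counts. Levels are counts scaled to library size (CPM) after TMM scaling over all libraries, and they are compared for a single gene between groups, since no transcript lengths were used. The first digit of the library names marks 3 library series: non-irradiated, untreated and oral groups hold 3 libraries each of series 1 and series 2, and all injected groups are of series 3 and were compared only with each other. Epithelial markers (6 genes, all detected) summed to 13012 CPM at day 4, 14141 CPM at day 7 and 11691.5 CPM in non-irradiated colon, and to 22864.5, 20150.5 and 24865 CPM in jejunum. Markers of mature colonocytes (6 genes, all detected) summed to 7461 CPM at day 4 and 3489 CPM at day 7, against 19996 CPM in non-irradiated colon. Crypt and proliferation markers (6 genes) summed to 149, 340 and 93.1 CPM in the same colon groups, and fibroblast markers (6 genes) to 48.6, 70.0 and 8.38 CPM. The share of mitochondrial counts was 9.16% at day 4 and 3.95% at day 7 in irradiated untreated colon, against 12.3% in non-irradiated colon. In jejunum the small-intestinal enterocyte sum (7 markers) was 107974 CPM at day 4 and 40541 CPM at day 7, against 101328 CPM in non-irradiated jejunum. Crypt and proliferation markers summed to 95.6 CPM at day 4 and 353 CPM at day 7, against 56.4 CPM, in jejunum, and the mitochondrial share was 12.7% and 5.39%, against 12.3%. Scaling to the epithelial markers and adding the mitochondrial share to the model were tried as alternatives, and the part of the other shifts in the results below was not tested. In bulk tissue fewer cells of a type and less RNA per cell cannot be told apart.

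Jejunum and colon of non-irradiated rats differed in most of these genes. Cldn15 averaged 1036 ± 145 CPM in non-irradiated jejunum and 116 ± 33.2 CPM in non-irradiated colon (SD, n = 6 each), a log2 difference of 3.09 ± 0.33 (SE, adjusted p = 2.51e-13). Cldn4 averaged 1902 ± 299 CPM in jejunum and 270 ± 60.4 CPM in colon, and Cldn7 averaged 2041 ± 237 CPM in jejunum and 917 ± 122 CPM in colon. For all 3 genes the lowest jejunum library lay above the highest colon library. Cldn2 ran the other way, with 21.1 ± 5.59 CPM in jejunum and 74.2 ± 20.6 CPM in colon (log2 difference −1.90 ± 0.44, adjusted p = 9.58e-05), again without overlap. How many of all genes lack overlap was not computed, for these groups or for those compared below. Nothing particular to the members is therefore read from a lack of overlap. Cldn23 was lower in jejunum by 0.59 ± 0.21 on the log2 scale, and Cldn3 and Cldn1 did not pass the test, Cldn1 with 8 counts over the jejunum libraries and 12 over the colon libraries.

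Cldn8 was in effect a colon gene in these libraries. It had 3 counts over the 6 non-irradiated jejunum libraries and 22130 counts over the 6 non-irradiated colon libraries, which puts the colon level 4519 times above that of jejunum, with an exact 95% counting interval of 1546 to 21915 that covers counting error only. In all 66 jejunum libraries Cldn8 had 26 counts, 45 of them had none and no library had more than 3. It therefore did not pass the low-count filter in jejunum, where 8 of the 9 genes were tested. In the fit of both tissues it passed only through colon libraries. Its call there, among those counted next, was to be had only towards colon. In all, 7 of the 9 genes differed between the tissues by edgeR's quasi-likelihood test with Benjamini-Hochberg adjustment (p under 0.05), where 71.5% of all genes tested did. Tjp1 (−0.39 ± 0.16, adjusted p = 0.0315) lost its call in 8 of 16 other settings. It also lost it in library series 1 alone, where the value turned to 0.14. Cldn7 lost its call when the counts were scaled to the epithelial markers, a scaling under which the median of all genes was −1.02 in place of −0.21.

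Among the pore claudins, Cldn2 rose after irradiation in both tissues, and more in jejunum. In jejunum at day 4 its lowest, median and highest libraries held 122, 316 and 689 CPM, at day 7 they held 76.7, 320 and 547 CPM, and in non-irradiated jejunum they held 15.6, 21.0 and 28.5 CPM. Every irradiated library lay above every non-irradiated one. The log2 fold change was 3.97 ± 0.41 at day 4 (adjusted p = 4.98e-09) and 3.88 ± 0.41 at day 7 (adjusted p = 3.89e-09). Within library series 1 it was 3.67 and 3.48 and within series 2 it was 4.26 and 4.24, and all were called. In colon the 6 libraries of day 4 held 173 to 375 CPM, with a median of 228 CPM, against 46.2 to 109 CPM in non-irradiated colon, with a median of 72.6 CPM (1.78 ± 0.45, adjusted p = 0.00156). By series this was 1.27 (adjusted p = 0.107) in series 1 and 2.26 in series 2. At day 7 the colon libraries spread from 62.4 to 473 CPM, with a median of 90.01 CPM. They overlapped the non-irradiated libraries (1.15 ± 0.44, adjusted p = 0.0217), with a log2 fold change of 1.54 in series 1 and 0.46 in series 2, where the call was lost.

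The difference of the irradiation effect between the tissues was tested as an interaction. For Cldn2 it was 2.36 ± 0.60 (jejunum minus colon, adjusted p = 0.00304) at day 4 and 2.80 ± 0.61 (adjusted p = 0.000194) at day 7. Within a single series the call was lost in series 2 at day 4 (2.01, adjusted p = 0.0713) and in series 1 at day 7 (2.02, adjusted p = 0.0598). Cldn2 was the 1 member called at day 4, where 21.5% of all genes were called. The Cldn2 means of the oral and injected groups in jejunum lay between 294 CPM in injected vehicle at day 7 and 490 CPM in oral vehicle at day 7. In colon they lay between 195 CPM in powder at day 4 and 345 CPM in injection at day 7. Plek2, Map3k20 and Rrn3 followed Cldn2 most closely over the 22 group means, centred within tissue (Pearson r = 0.94 each, a description over groups that share library series).

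Cldn15, the other pore claudin, was lower after irradiation in jejunum, and in colon at day 7. In jejunum it averaged 691 ± 185 CPM at day 4 and 562 ± 186 CPM at day 7, against 1036 ± 145 CPM in non-irradiated rats (SD, n = 6 each). The day 7 libraries all lay below the non-irradiated ones (−0.90 ± 0.23, adjusted p = 0.00122), while those of day 4 overlapped them (−0.57 ± 0.23, adjusted p = 0.0403, a call lost in 6 of 16 other settings). At day 7 in jejunum the call was lost in series 1 (−0.76, adjusted p = 0.0998) and kept in series 2 (−1.08, adjusted p = 0.00822). In colon it averaged 74.7 ± 43.0 CPM at day 4, which was not called (adjusted p = 0.135), and 51.5 ± 13.1 CPM at day 7 (−1.21 ± 0.36, adjusted p = 0.00366), against 116 ± 33.2 CPM. The day 7 value was −1.74 in series 1 and −0.64 in series 2 (adjusted p = 0.433). The genes most like Cldn15 over the group means were Gpld1 (r = 0.91), Parp16 and Vezf1 (r = 0.89 each).

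**Figure D1:**
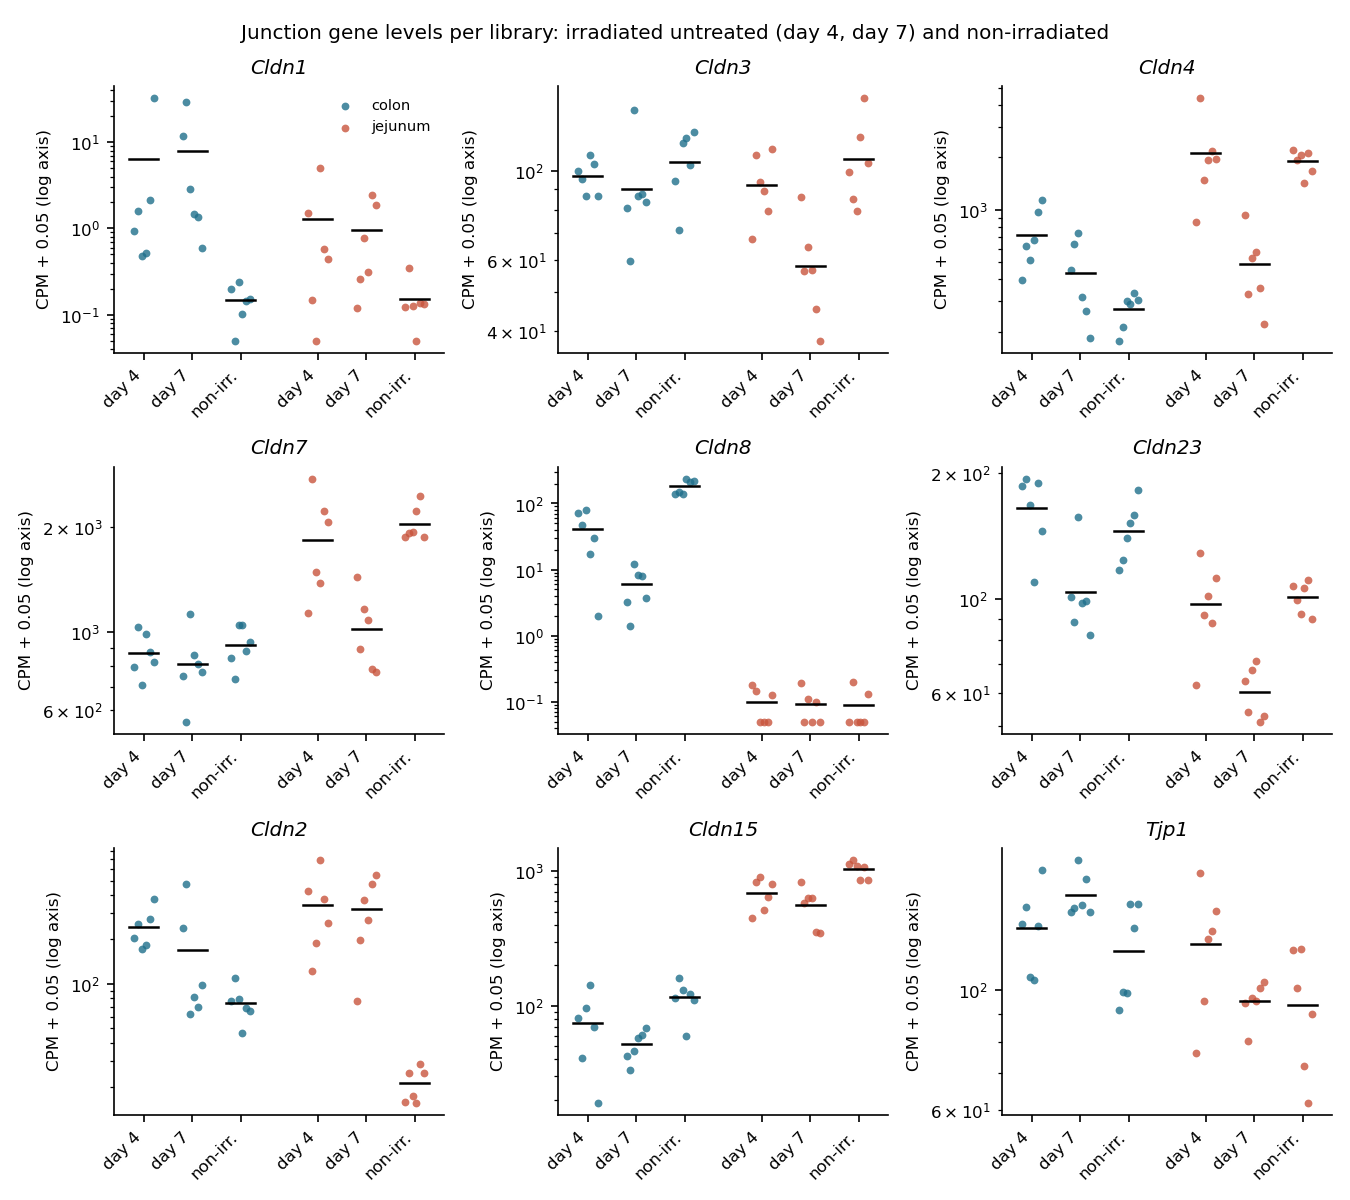
Level of each gene in each library of irradiated untreated rats at day 4 and day 7 and of non-irradiated rats, as CPM plus 0.05 on a log axis that differs between panels; colon is blue, jejunum is red, points are single libraries and bars are means of 6. For Cldn2 in jejunum and Cldn1 and Cldn8 in colon no irradiated library overlaps the non-irradiated ones, while day 4 and day 7 overlap, and Cldn8 is near 0 in jejunum throughout.

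Of the sealing claudins, Cldn1 and Cldn8 moved most in colon, in opposite directions. Cldn1 was nearly silent in non-irradiated rats, with 0 to 0.191 CPM in colon. Its lowest, median and highest libraries in irradiated untreated colon held 0.435, 1.21 and 32.4 CPM at day 4, and 0.535, 2.13 and 28.9 CPM at day 7. All irradiated libraries lay above all non-irradiated ones. The log2 fold change was 5.67 ± 1.48 at day 4 (adjusted p = 0.00222) and 6.63 ± 1.49 at day 7 (adjusted p = 0.000242), and since the gene passed the low-count filter only through irradiated libraries, a call was to be had only upwards. By series it was 3.04 (adjusted p = 0.0773) and 7.08 (adjusted p = 0.0194) at day 4, and 6.95 (adjusted p = 4.71e-05) and 3.61 (adjusted p = 0.221) at day 7. In jejunum Cldn1 held 1.25 ± 1.92 CPM at day 4 and 0.915 ± 0.971 CPM at day 7, against 0.103 ± 0.101 CPM in non-irradiated jejunum. It was called at both days there (3.25 ± 1.09, adjusted p = 0.0152, and 2.78 ± 1.10, adjusted p = 0.0288), with overlapping groups, and not within series 1 at either day (adjusted p = 0.381 and 0.572). The call was also lost without replicate 1 or replicate 4 of every group at day 4, and without replicate 5 or replicate 6 at day 7.

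Cldn8 fell in irradiated colon at both days. Its lowest, median and highest libraries held 1.93, 38.2 and 80.5 CPM at day 4 and 1.34, 5.81 and 12.1 CPM at day 7, against 139, 180 and 233 CPM in non-irradiated colon. No irradiated library reached the lowest non-irradiated one. The log2 fold change was −2.27 ± 0.76 at day 4 (adjusted p = 0.0145) and −4.94 ± 0.85 at day 7 (adjusted p = 5.46e-06). Between the days it fell by 2.68 ± 0.78 on the log2 scale (adjusted p = 0.00716), and this was not called in series 2 (−1.33, adjusted p = 0.376; −3.63 in series 1). At day 7 it was called in each series, −4.71 in series 1 and −5.06 in series 2, and at day 4 only in series 2 (−3.72, adjusted p = 0.0184, and −1.08, adjusted p = 0.252, in series 1). With the mitochondrial share added to the model the changes were −1.05 at day 4 and −0.38 at day 7 and neither was called, and day 7 against day 4 turned to 0.67 (adjusted p = 0.83). That share differs between these groups, and the share and the irradiation cannot be told apart here. The colonocyte marker sum above moved the same way as Cldn8.

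In 4 of the 5 colon groups of day 4, 1 library stood apart in Cldn1, and the same library had the lowest Cldn8 of its group. Replicate 1 of injection held 19.9 CPM of Cldn1, while the other 5 libraries of that group held 0.455 to 0.966 CPM. Replicate 5 of oral vehicle held 26.2 CPM, against 0.242 to 1.74 CPM in the others, and replicate 6 of irradiated untreated held 32.4 CPM, against 0.435 to 2.10 CPM. Replicate 4 of injected vehicle held 61.9 CPM, against 0.505 to 22.5 CPM. The median of that group was 9.43 CPM, so its highest library stood apart less clearly than those of the other groups named. Cldn8 in these 4 libraries was 1.07 to 1.93 CPM, and they had the lowest colonocyte marker sums, at 980.8 to 1342 CPM. The powder group of day 4 held no such library: its Cldn1 ran from 0.211 to 1.29 CPM and its Cldn8 from 21.7 to 114 CPM. Over the 10 irradiated colon groups, the library with the highest Cldn1 was the one with the lowest Cldn8 in 7. Cldn15 was also lowest of its group in each of the 4 libraries named. In irradiated untreated it was 19.0 CPM, against 40.6 CPM or more in the others, and in injected vehicle 17.8 CPM, against 31.0 CPM or more. How many other genes follow these libraries was not computed, and nothing particular to Cldn1 and Cldn8 is read from this. Without replicate 6, an alternative chosen after seeing the data, Cldn1 at day 4 in irradiated untreated colon was 3.41 (adjusted p = 0.0503) and no longer called, and Cldn8 was −1.96 (adjusted p = 0.0364). Day 7 was then above day 4 for Cldn1 (2.95, adjusted p = 0.0262), a difference that was not called with that library included (0.96, adjusted p = 0.535). By series it was 3.91 in series 1 (adjusted p = 0.00166) and −3.48 in series 2, which holds that library (adjusted p = 0.129).

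**Figure D2:**
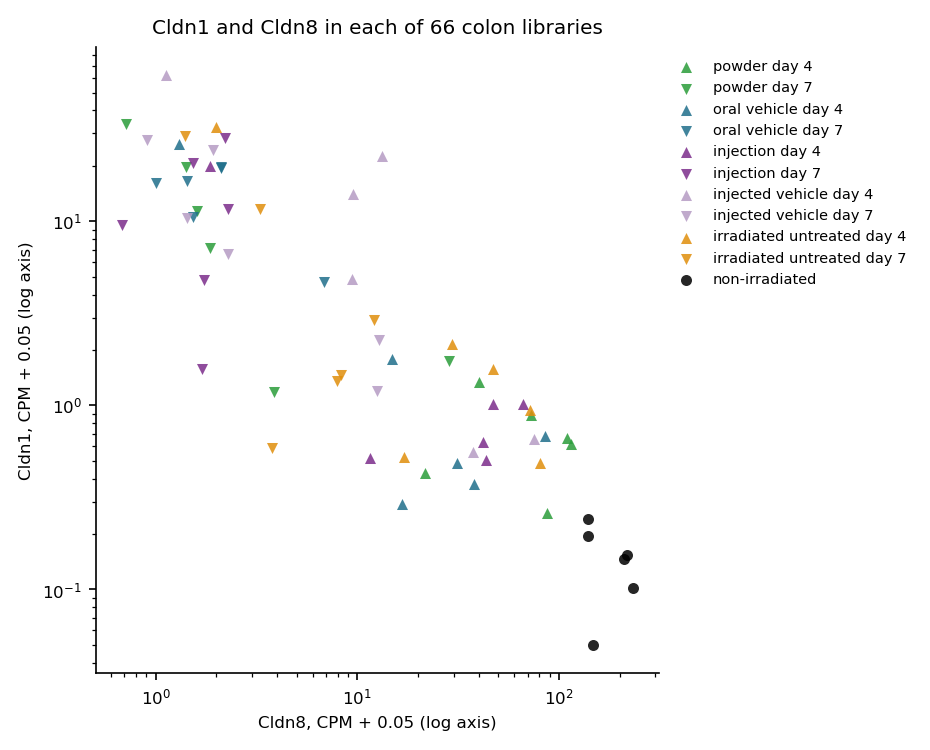
Cldn1 against Cldn8 in each of the 66 colon libraries, both as CPM plus 0.05 on log axes; colours mark the preparation, upward triangles day 4, downward triangles day 7 and black circles non-irradiated rats. Non-irradiated libraries lie at the lower right, with Cldn8 of 139 to 233 CPM and Cldn1 up to 0.191 CPM, and most day 7 libraries at the upper left.

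Promoter windows of both genes are shown because these 2 moved in opposite directions. They are the 250 bases before and 50 bases after the start of the gene in RefSeq (build GRCr8), at chr11:87926126-87926425 on the plus strand for Cldn1 and chr11:41364281-41364580 on the minus strand for Cldn8. The RefSeq table matched 6 of the 9 genes by symbol, all but Cldn2, Cldn4 and Cldn23. Capitals mark matches, on either strand, to the letters CACCTG (the E-box that Snail and Zeb factors bind), TGANTCA (the AP-1 site), TATAAA (the core promoter box), GGGCGG (the GC box), AGATAA (read by zinc finger factors of the gut) or CAAAGTCCA (an HNF4 site), none of which overlapped another in these windows.
Cldn1: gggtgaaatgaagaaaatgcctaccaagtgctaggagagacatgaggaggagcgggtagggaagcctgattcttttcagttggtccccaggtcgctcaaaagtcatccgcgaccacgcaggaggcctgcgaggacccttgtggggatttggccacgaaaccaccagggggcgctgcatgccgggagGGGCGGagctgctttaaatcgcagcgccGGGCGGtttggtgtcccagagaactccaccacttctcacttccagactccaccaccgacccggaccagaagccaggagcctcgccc
Cldn8: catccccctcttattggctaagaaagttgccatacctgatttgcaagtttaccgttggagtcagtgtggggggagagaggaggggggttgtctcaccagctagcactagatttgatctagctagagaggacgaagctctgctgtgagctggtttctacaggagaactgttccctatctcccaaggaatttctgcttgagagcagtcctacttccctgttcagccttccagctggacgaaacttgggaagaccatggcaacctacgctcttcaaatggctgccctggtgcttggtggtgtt
The Cldn1 window holds GGGCGG at positions −64 and −36 from the start and no other match, and 33.1% of 33469 promoters of this length hold that motif. The Cldn8 window holds none of the 6 motifs. Its base composition is 51.3% G and C, against 60.7% in the Cldn1 window. An ATG follows the annotated Cldn8 start almost at once, and whether transcription begins there was not tested. The windows of Cldn1 and Cldn8 may therefore not cover like parts of their genes, and nothing is read from their difference.

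The genes most like Cldn8 over the group means were Colec10 (r = 0.98), Gnb5 (r = 0.98) and Zfat (r = 0.97), and those most like Cldn1 were Krt80, Egfl7 and Padi1 (r = 0.96 each). Krt80 encodes a keratin, Padi1 a peptidylarginine deiminase of stratified epithelium, and Egfl7, which endothelium expresses, also stands on the endothelial marker list. That list summed to 11.4 CPM at day 4 and 11.2 CPM at day 7 in irradiated untreated colon, against 5.37 CPM in non-irradiated colon. The squamous epithelium list (6 genes found) summed to 0.301, 0.360 and 0.00861 CPM in the same groups, and 5 of its 6 genes had 0 counts in non-irradiated colon. Cldn17, the neighbour of Cldn8 with no protein-coding gene between them in RefSeq, fell as well: it averaged 0.240 CPM at day 4 and 0.0918 CPM at day 7, against 1.75 CPM in non-irradiated colon (−2.86 ± 0.57 and −4.21 ± 0.63, adjusted p = 0.000142 and 6.39e-07). It passed the low-count filter only through non-irradiated libraries, so a call was to be had only downwards. It had no counts in non-irradiated or irradiated untreated jejunum.

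Cldn4 rose in colon at both days and fell in jejunum at day 7. In colon its lowest, median and highest libraries held 394, 646 and 1136 CPM at day 4, above all non-irradiated libraries, which held 178, 295 and 333 CPM. The log2 fold change was 1.41 ± 0.31 (adjusted p = 0.000496), and it was called in each series (1.16 and 1.63). At day 7 the colon libraries held 185 to 733 CPM and the rise was smaller (0.75 ± 0.31, adjusted p = 0.0361). It was 1.40 in series 1 (adjusted p = 0.000328) and −0.28 in series 2, where it was not called. The direction at day 7 thus rests on series 1, and besides series 2 the call was lost in 7 of 16 settings. In jejunum Cldn4 was not called at day 4, with 853 to 4378 CPM against 1420 to 2210 CPM. At day 7 it held 223 to 933 CPM, below every non-irradiated library (−1.96 ± 0.41, adjusted p = 0.000152). The interaction at day 7 was −2.59 ± 0.52 (jejunum minus colon, adjusted p = 6.43e-05). Ccdc120 (r = 0.98), Zfp36 and Igsf23 (r = 0.97 each) were most like Cldn4 over the group means.

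Cldn3, Cldn7 and Cldn23 fell with Cldn4 in jejunum at day 7. Cldn7 averaged 1835 ± 604 CPM at day 4 and 1022 ± 258 CPM at day 7, against 2041 ± 237 CPM in non-irradiated jejunum. Its day 7 libraries all lay below the non-irradiated ones (−1.0 ± 0.20, adjusted p = 9.54e-05). Cldn3 averaged 57.8 ± 16.8 CPM at day 7, against 107 ± 26.6 CPM (−0.89 ± 0.20, adjusted p = 0.000242), and Cldn23 60.1 ± 8.59 CPM, against 101 ± 8.66 CPM (−0.75 ± 0.20, adjusted p = 0.00161). None of the 3 was called at day 4, and all of them were lower at day 7 than at day 4 in untreated jejunum, from −0.68 for Cldn3 to −0.86 for Cldn7 on the log2 scale, as was Cldn4 (−2.14 ± 0.41). Within series 1, with 3 libraries a group, only Cldn23 of these 4 genes was called at day 7 against non-irradiated jejunum (−0.70, adjusted p = 0.0476). Within series 2 all 4 were, from −0.82 to −2.18. Over the 22 group means the 4 genes had pairwise r of 0.73 to 0.88, a description over groups that share library series. Cldn3 and Cldn4 are neighbours with no protein-coding gene between them in RefSeq.

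In colon, Cldn3 and Cldn7 did not pass the test at either day. Cldn7 held 871 ± 122 CPM at day 4 and 813 ± 187 CPM at day 7, against 917 ± 122 CPM, and Cldn3 97.0 ± 9.30 and 89.98 ± 27.4 CPM, against 105 ± 20.2 CPM. The difference between the tissues at day 7 was called for Cldn7 (−0.73 ± 0.26, jejunum minus colon, adjusted p = 0.0191) and not for Cldn3 (−0.57, adjusted p = 0.0868). The Cldn7 call was lost in 3 other settings (−0.38 scaled to the epithelial markers, −0.52 in series 1, and without replicate 5), and Cldn3 was called in 6, so the 2 genes are not shown to differ. At day 7, 3 members were called in this interaction (Cldn2, Cldn4 and Cldn7), where 39.4% of all genes were. Cldn23 was lower in colon at day 7 than at day 4 (−0.69 ± 0.21, adjusted p = 0.00985) and than in non-irradiated rats (−0.50 ± 0.21, adjusted p = 0.0383). The first call was lost with the mitochondrial covariate and in series 2 alone (−0.72, adjusted p = 0.14), 2 of 17 other settings. The second call was lost in 9 of 16 other settings.

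The promoters of Cldn7 and Cldn3 are shown since the 2 genes moved together in jejunum. They lie at chr10:55188420-55188719 on the plus strand and at chr12:27346498-27346797 on the minus strand (GRCr8), with capitals as above.
Cldn7: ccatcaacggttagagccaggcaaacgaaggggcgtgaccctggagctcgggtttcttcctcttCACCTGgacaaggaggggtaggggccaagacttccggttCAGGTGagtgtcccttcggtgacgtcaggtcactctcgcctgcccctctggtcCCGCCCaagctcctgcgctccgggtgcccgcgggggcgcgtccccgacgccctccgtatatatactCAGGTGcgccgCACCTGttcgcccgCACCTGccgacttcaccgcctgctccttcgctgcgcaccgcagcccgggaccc
Cldn3: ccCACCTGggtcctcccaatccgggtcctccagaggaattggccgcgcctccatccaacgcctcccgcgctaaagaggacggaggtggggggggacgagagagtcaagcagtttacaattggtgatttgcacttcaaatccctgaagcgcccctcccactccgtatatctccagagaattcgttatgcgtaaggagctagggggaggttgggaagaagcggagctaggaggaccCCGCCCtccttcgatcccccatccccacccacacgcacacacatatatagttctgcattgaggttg
The Cldn7 window holds 5 matches to CACCTG on either strand, at −186, −147, −28, −17 and −3. At least 1 match is found in 18.8% of 33469 promoters of this length, and 4 or more in 0.0508% of them. The Cldn3 window holds 1, at −248, and both windows hold 1 GC box. Of the other windows, that of Cldn15 holds TGANTCA at −214, a motif found in 7.33% of promoters, and a GC box at −108. The Tjp1 window, at 33.7% G and C, holds none of the 6 motifs, and an ATG stands soon after its annotated start. Whether an annotated start is the one used in intestine was not tested for any gene. A window without a match therefore does not show a promoter without the motif. These matches describe the letters only.

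Tjp1 had the narrowest range of group means among the 9 genes, 0.67 on the log2 scale after centring within tissue. In colon it averaged 130 ± 23.4 CPM at day 4, which was not called, and 150 ± 14.2 CPM at day 7 (0.35 ± 0.15, adjusted p = 0.0407), against 118 ± 24.3 CPM. The day 7 call came from series 1 (0.65, adjusted p = 0.000973) and was absent in series 2 (0.08, adjusted p = 0.828), and it was lost in 7 of 16 settings. In jejunum it averaged 121 ± 31.6 CPM at day 4 (0.38, adjusted p = 0.0734) and 95.1 ± 7.98 CPM at day 7 (adjusted p = 0.936), against 93.7 ± 23.6 CPM. The day 4 value was called in 4 other settings, among them series 2 (0.82, adjusted p = 0.00248), while in series 1 it was −0.02. Over the 22 groups its means ran from 86.4 CPM in jejunum of powder at day 7 to 174 CPM in colon of injected vehicle at day 4.

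Counted together against non-irradiated rats, 3 of the 9 genes rose and 1 fell in colon at day 4, where 46.9% of all genes tested were called (24.6% higher and 22.3% lower). At day 7 in colon, 4 rose and 3 fell, with 63.6% of all genes called (32.9% higher and 30.8% lower). With the mitochondrial share in the model 0 of these 7 were called, and all kept their direction: Cldn15 was −1.69, Cldn2 1.01, Cldn1 3.57 and Cldn23 −0.42, while Cldn8 (−0.38), Cldn4 (0.09) and Tjp1 (0.13) were closer to 0 than before. In jejunum 2 of 8 rose and 1 fell at day 4 (44.0% of all genes called, 25.0% higher and 18.9% lower), and 2 rose and 5 fell at day 7 (58.8%, 31.4% higher and 27.4% lower). Against day 4, day 7 had 2 genes lower in untreated colon (Cldn8 and Cldn23; 36.5% of all genes called, 18.0% higher and 18.5% lower) and 4 lower in untreated jejunum (41.0%, 20.3% higher and 20.7% lower). The median log2 fold change over the members was 0.17 in colon at day 4 and −0.18 at day 7, against 0.02 over all genes in both. In jejunum it was 0.06 at day 4, against 0.05 over all genes, and −0.82 at day 7, against 0.02. Cldn1 is among the genes counted and could be called only upwards, and nothing particular to these genes is read from the counts.

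**Figure D3:**
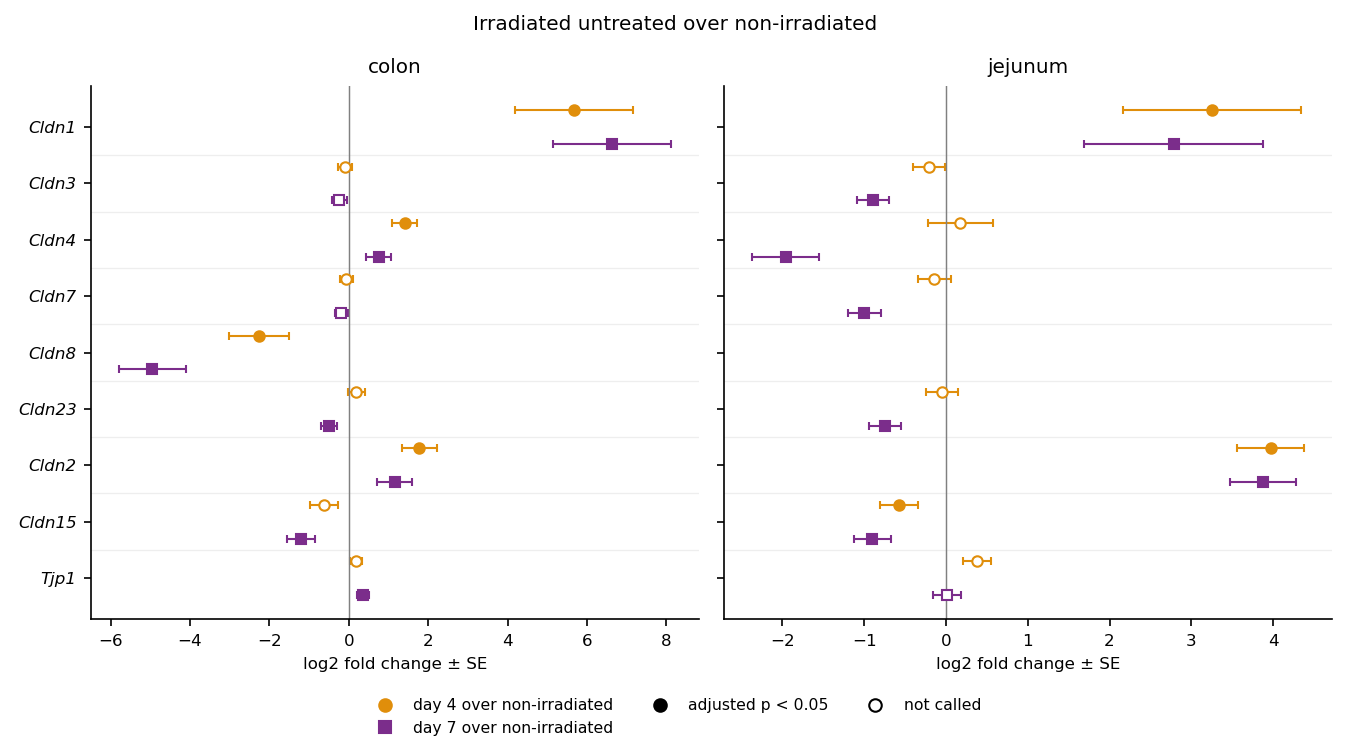
Log2 fold change of irradiated untreated over non-irradiated rats for each gene, with its SE, at day 4 (circles) and day 7 (squares) in colon and jejunum; filled marks have an adjusted p under 0.05. Cldn2 and Cldn1 lie to the right in both tissues, Cldn4 lies to the right in colon and, at day 7, to the left in jejunum, and Cldn8 has no mark in jejunum because it was not tested there.

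The injected groups, of library series 3, gave a further comparison of the days. In injected vehicle colon, day 7 had 5 of 9 genes lower than day 4 and none higher. Of all genes 27.4% were called, 16% higher and 11.4% lower. Cldn4 held 467 ± 156 CPM at day 7 and 1138 ± 366 CPM at day 4 without overlap (−1.30 ± 0.35, adjusted p = 0.00894), and Cldn23 held 94.2 ± 35.8 and 198 ± 71.6 CPM (−1.09 ± 0.27, adjusted p = 0.00477). Cldn8, Cldn3 and Cldn7 were lower by 2.24, 0.73 and 0.55 on the log2 scale. In injected vehicle jejunum, 5 of 8 were lower, Cldn3, Cldn4, Cldn7, Cldn23 and Tjp1, from −0.53 to −1.88. There 50.6% of all genes were called, 25.5% higher and 25.2% lower. In colon the calls of Cldn3, Cldn7 and Cldn8 were lost in 8, 9 and 10 of 14 other settings. With the mitochondrial share as a covariate none of these 10 calls remained, and all 10 values stayed negative: Cldn4 was −1.19 in colon and −1.36 in jejunum, Cldn23 was −0.67 in jejunum, and the others were −0.21 to −0.34. That share was 6.27% at day 7 and 11.8% at day 4 in this colon, and 6.24% and 18.5% in this jejunum.

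The preparations were compared with their own vehicles to ask what each changed in irradiated rats. Of 68 tests of a member over the 8 comparisons, 1 was called by edgeR and 4 had an unadjusted p under 0.05. The call was Cldn4 in colon at day 4, where powder lay below oral vehicle. Its lowest, median and highest libraries held 273, 316 and 624 CPM with powder, and 453, 668 and 1271 CPM with oral vehicle. Most powder libraries were lower, and the groups overlapped. The log2 fold change was −1.06 ± 0.31 (adjusted p = 0.0245), in a comparison in which 11.8% of all genes were called (4.89% higher and 6.9% lower). It was −1.02 in series 1 (adjusted p = 0.0768) and −1.11 in series 2 (adjusted p = 0.201). Without the oral vehicle library that stood apart it was −0.88 (adjusted p = 0.102), and scaled to the epithelial markers, which summed to 11571 CPM with powder and 14110 CPM with oral vehicle, it was −0.74 (adjusted p = 0.0612). In all, 8 of 17 other settings lost the call, among them leaving out replicate 1, 3 or 5 of every group.

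The other members in that comparison did not pass. Tjp1 held 106 ± 15.0 CPM with powder and 143 ± 42.8 CPM with oral vehicle (−0.42 ± 0.15, adjusted p = 0.0569). Cldn1 held 0.651 ± 0.381 and 4.93 ± 10.4 CPM (−2.70 ± 1.15, adjusted p = 0.114), and the difference was −0.09 without the library that stood apart. Cldn8 held 74.2 ± 37.2 CPM with powder and 31.3 ± 29.6 CPM with oral vehicle (1.27 ± 0.72, adjusted p = 0.246), and Cldn15 117 ± 32.8 and 68.4 ± 31.7 CPM (0.79 ± 0.35, adjusted p = 0.13). DESeq2 called Cldn1 and Tjp1 besides Cldn4.

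No member was called by edgeR between powder and oral vehicle at day 7 in colon (0% of all genes called) or jejunum (0.008%), nor at day 4 in jejunum (0.008%). The difference of the powder effect on Cldn4 in colon between the days was 1.08 ± 0.44 (day 7 minus day 4, adjusted p = 0.227), so a change of the effect with time was not shown; no difference between the days was called in 34 tests over both preparations and tissues, and 1 had an unadjusted p under 0.05. No member was called between injection and injected vehicle at either day in either tissue, in comparisons that called 0% of all genes. In these comparisons with a vehicle, all but that of powder in colon at day 4, edgeR gave 0 members an unadjusted p under 0.05, and DESeq2 called 0. Cldn4 in colon at day 4 held 845 ± 435 CPM with injection and 1138 ± 366 CPM with injected vehicle (−0.43 ± 0.34, adjusted p = 0.871). Between oral vehicle and irradiated untreated rats 0 of 34 tests were called by edgeR and 0 by DESeq2, and 1 had an unadjusted p under 0.05. These comparisons called 0% of all genes in colon at day 4, 0.00752% at day 7, 0% in jejunum at day 4 and 0.008% at day 7. The smallest adjusted p of the uncalled edgeR tests against vehicle was 0.0569, and the SE of a member's log2 fold change ran from 0.15 to 1.15. No limit of detection was computed for 6 libraries a group, so a missing call does not show that a member was unchanged.

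**Figure D4:**
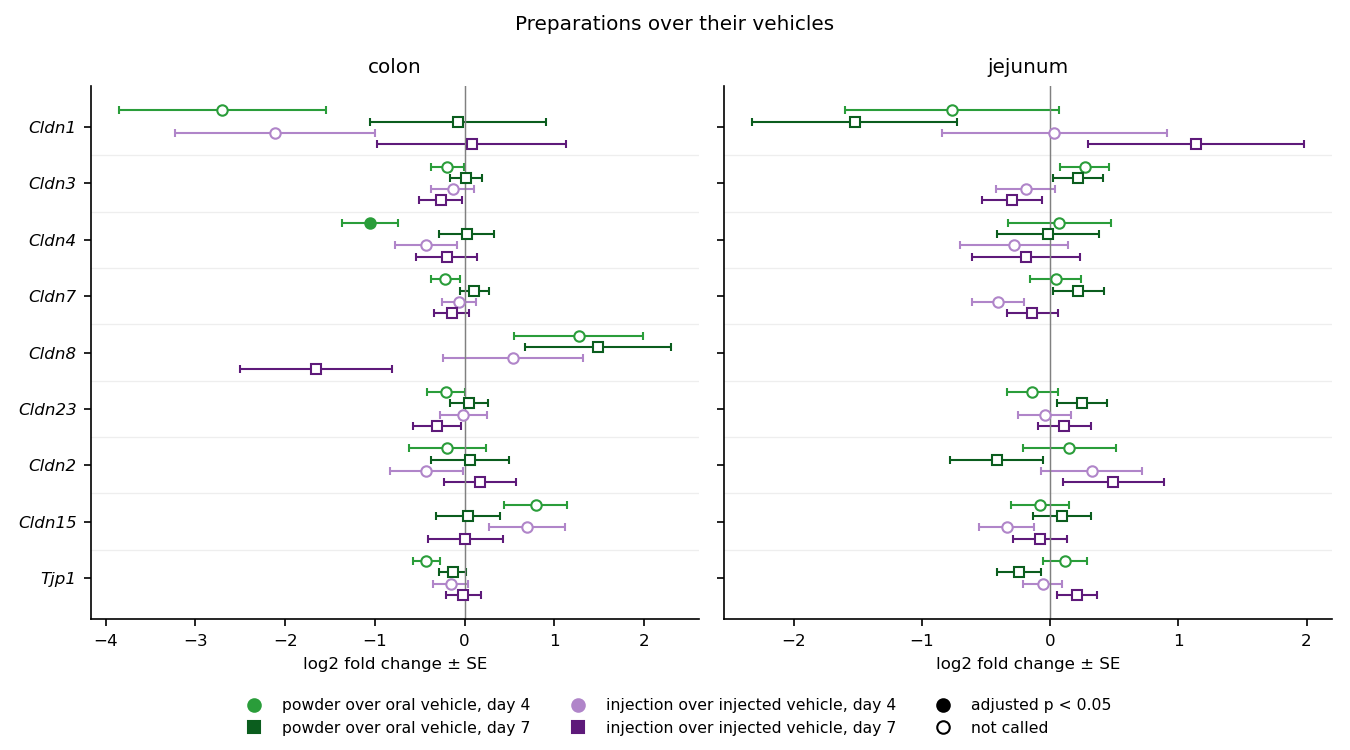
Log2 fold change of each preparation over its own vehicle for each gene, with its SE, in colon and jejunum; circles are day 4, squares day 7, green powder and purple injection, and filled marks have an adjusted p under 0.05. The 1 filled mark is Cldn4 in colon with powder at day 4.

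A wider list of 93 genes, chosen with earlier results of these data known, gave the surroundings; 90 were found. Beside junction components it holds 18 transcription factors, Snai1, Snai2, Zeb1, Zeb2 and Twist1 among them, and 10 actomyosin regulators. Of 54 junction components tested in colon, 14 rose and 5 fell at day 4, where 24.6% of all genes were higher and 22.3% lower. At day 7, 17 rose and 13 fell (32.9% and 30.8% of all genes). Of 50 tested in jejunum, 12 rose and 2 fell at day 4 (25.0% and 18.9% of all genes), and 11 rose and 14 fell at day 7 (31.4% and 27.4%). Nothing particular to the list is read from these counts. Jam3, a junctional adhesion molecule, was called in all 4 comparisons. It was near the floor in non-irradiated rats and passed the low-count filter only through irradiated libraries, so a call was to be had only upwards and its folds rest on few counts. It averaged 17.5 CPM at day 4 and 6.56 CPM at day 7, against 0.230 CPM in non-irradiated colon (6.23 ± 0.70 and 4.83 ± 0.69), and 6.30 and 1.37 CPM, against 0.123 CPM, in jejunum (5.42 ± 1.02 and 3.20 ± 1.05). Nectin4, an adherens junction receptor, averaged 6.88 and 11.4 CPM, against 0.717 CPM, in colon (3.05 ± 0.74 and 4.10 ± 0.75).

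Of the desmosome genes, 6 of 7 rose in colon at day 7 and none fell, in a comparison in which 32.9% of all genes were higher, and in jejunum 2 rose and 1 fell. Pkp1, a plakophilin best known from stratified epithelium, averaged 61.7 CPM at day 7, against 4.42 CPM in non-irradiated colon (3.65 ± 0.58, adjusted p = 1.5e-06), and 75.9 CPM at day 7, against 21.2 CPM, in jejunum (1.86 ± 0.27). Among the plaque proteins of the tight junction, Cgnl1, a cingulin relative, rose in colon at both days (1.73 ± 0.55 and 3.11 ± 0.56). Ybx3, which binds ZO-1 and is also called ZONAB, fell in colon (−0.75 ± 0.09 at day 4) and rose in jejunum (2.11 ± 0.36 at day 7). The adhesion molecule F11r (JAM-A) fell in jejunum at day 7 (−0.95 ± 0.20), where it averaged 404 CPM, against 782 CPM.

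Among the genes of tricellular contacts, Lsr (angulin-1) rose at day 4 in colon (0.30 ± 0.09) and in jejunum (0.45 ± 0.15). At day 7 Ildr1 (angulin-2) and Marveld3 fell in colon (−1.13 ± 0.23 and −0.39 ± 0.15), and Marveld3 and Marveld2 (tricellulin) fell in jejunum (−0.73 ± 0.23 and −0.50 ± 0.16). Of the epithelial transcription factors, Cdx1 fell in colon at both days (−1.25 ± 0.21 and −1.28 ± 0.20) while Hnf4g rose (1.68 ± 0.29 and 1.33 ± 0.28). In jejunum Gata6 and Klf4 fell at day 7 (−1.41 ± 0.26 and −1.11 ± 0.33) and Grhl2 rose (1.69 ± 0.32). Cldn18, a claudin of the stomach and lung, had 23 counts at day 4 and 27 at day 7 over 6 jejunum libraries, against 2 in non-irradiated jejunum. With so few counts in non-irradiated jejunum, it passed the low-count filter only through irradiated libraries, so a call was to be had only upwards. It was called at both days, and the counts are too few for a fold.

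With powder at day 4 in colon, 11 of 78 genes of the wider list were lower and 1 was higher than with oral vehicle, where 6.9% of all genes were lower and 4.89% higher. Scaled to the epithelial markers, 1 of the 78 was lower, and without oral vehicle replicate 5, 2 were. Both settings left 0 desmosome genes called. The lower ones in the comparison as made included 4 of 7 desmosome genes, among them Pkp1 (4.98 CPM with powder and 17.6 CPM with oral vehicle; −1.75 ± 0.54) and Dsg2 (338 and 516 CPM; −0.59 ± 0.16). They also included Nectin2 (−0.73 ± 0.14), Cxadr (−0.78 ± 0.20) and Cdh1, the gene of E-cadherin (−0.44 ± 0.13), which is also an epithelial marker. Magi2 was the gene that was higher (0.571 CPM with powder and 0.207 CPM with oral vehicle; 1.44 ± 0.45). Nectin2 was called lower in both settings (−0.44 and −0.66). The median over the 78 was −0.14, against 0.01 over all genes, and 0.12, against 0.27, scaled to the epithelial markers.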

How the data were processed

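Total RNA of rat colon and jejunum epithelium was sequenced in 22 groups of 6 libraries, and the authors deposited raw read counts per gene, with STAR 2.7.10a and the build mRatBN7.2 named per the submitters' processing notes; no source used here names the counter, its annotation or whether strand was used. Reads of overlapping genes cannot therefore be told apart. The 2 deposited tables list 21837 genes each and share 36 libraries, whose counts were identical and were used once. Depth ran from 17.2 to 19.8 M counts per library.

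Counts were tested in edgeR 4.0.16 (R 4.3.3) with TMM scaling, its filter on low counts by group and the quasi-likelihood F test. Untreated and oral groups of a tissue shared 1 fit with library series as a term, injected groups shared another, and tissue comparisons used both tissues. Adjusted p is Benjamini-Hochberg over all genes tested, with a call under 0.05, and the SE is the log2 fold change divided by the root of F. The colon fits were tested on simulated data with the same spread for every gene and no effect of library series. That check does not cover genes as variable between libraries as Cldn1 or Cldn8. Levels are CPM computed here from the deposited counts. Replicates of every group differed by more than sampling noise. Replicate numbers did not pair libraries across groups.

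The genes and the lists of junction and marker genes (149 of 154 found, 3 under another symbol) were chosen with earlier results of these data known. From each junction list the rule took the called genes with the largest change, and the text names a part of them; the 4 libraries left out singly, and the settings tried on the wider list, were chosen after seeing the data. Alternatives were DESeq2 1.42.0, other scaling, no filter, each library series alone, the mitochondrial share as a covariate, other designs and leaving out each replicate.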

Additional observations from a re-analysis of the deposited data

Results flagged for a closer look

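Both ends of 196 sets of 6 libraries (a gene in a group) were checked. In 23 sets the highest library had a gap to the next one over Dixon's 95% critical value. For normally distributed values chance gives about 1 in 20. CPM are skewed and for some genes near the floor, so that rate does not apply here as it stands. Cldn1 had 7 of the 23 sets. In colon at day 4 these were replicate 1 of injection at 19.9 CPM, replicate 4 of injected vehicle at 61.9 CPM, replicate 5 of oral vehicle at 26.2 CPM and replicate 6 of irradiated untreated at 32.4 CPM, the libraries described above. In jejunum they were replicate 6 of injection at day 7 at 7.67 CPM, replicate 4 of irradiated untreated at day 4 at 5.03 CPM and replicate 2 of non-irradiated rats at 0.297 CPM.

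Cldn8 stood out at 28.5 CPM in replicate 6 of powder and at 6.80 CPM in replicate 1 of oral vehicle, both in colon at day 7. In jejunum at day 4 single counts set replicate 5 of injection (0.0546 CPM) and replicate 6 of injected vehicle (0.0578 CPM) apart. Replicate 6 of powder at day 7 in colon was also high in Cldn3, at 151 CPM, and Cldn7, at 1438 CPM. Replicate 2 of injection at day 4 in colon was high in Cldn3, at 194 CPM, and Cldn7, at 1383 CPM. Replicate 3 of irradiated untreated colon at day 7 was high in Cldn3, at 142 CPM, and Cldn23, at 157 CPM. Cldn4 reached 624 CPM in replicate 5 of powder at day 4 and 786 CPM in replicate 6 of injection at day 7, both in colon. Cldn23 reached 102 CPM in replicate 3 of powder at day 4 in jejunum. Cldn2 reached 843 CPM in replicate 6 of injection at day 7 and 469 CPM in replicate 2 of injected vehicle at day 4, both in jejunum. Cldn15 reached 163 CPM in replicate 6 of injected vehicle at day 4 in colon.

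The effect of irradiation differed between jejunum and colon (jejunum minus colon, log2, edgeR interaction) for Cldn2 at day 4 by 2.36 ± 0.60 (adjusted p = 0.00304) and at day 7 by 2.80 ± 0.61 (adjusted p = 0.000194). At day 7 it also differed for Cldn4, by −2.59 ± 0.52 (adjusted p = 6.43e-05), and Cldn7, by −0.73 ± 0.26 (adjusted p = 0.0191).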

How the results depend on the processing

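Of 49 called values of a member, 48 kept their call and direction with DESeq2, 48 with RLE size factors, 45 without the filter on low counts, 36 scaled to the epithelial markers and 27 with the mitochondrial covariate. Of 39 that could be refitted in single library series, 19 kept it in series 1 and 27 in series 2, with 3 libraries a group. The cause of these losses was not tested. Scaling to the epithelial markers shifted the median of all genes by −0.28 in colon at day 4, −0.18 at day 7, 0.25 for powder in colon at day 4 and 0.26 in jejunum at day 7, and the tissue comparison by −0.81. 3 values turned: Cldn4 in colon at day 7 was −0.28 in series 2, Cldn8 in colon at day 7 against day 4 was 0.67 with the mitochondrial covariate (adjusted p = 0.83), and Tjp1 between non-irradiated tissues was 0.14 in series 1.

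Counts of called members moved as follows. In colon against non-irradiated rats, day 4 had 1 in series 1, and day 7 had 4 with epithelial scaling, 0 with the mitochondrial covariate, 1 in series 2 and 3 to 6 with 1 replicate left out (3 without replicate 1 and 3 without replicate 2). Day 7 against day 4 in colon had 0 with the covariate and 4 in series 1. Powder against oral vehicle in colon at day 4 had 3 with DESeq2, 0 with epithelial scaling, 0 with the covariate, 0 in each series, 0 to 2 with 1 replicate left out (0 without replicate 1, 3 or 5) and 0 without oral vehicle replicate 5 alone. Injected vehicle at day 7 against day 4 in colon had 3 without the filter, 1 with epithelial scaling, 0 with the covariate, 2 with only the groups compared and 1 to 5 with 1 replicate left out (1 without replicate 3, 2 without replicate 1, 5 or 6). In jejunum it had 2 with epithelial scaling, 0 with the covariate and 2 to 5 with 1 replicate left out (2 without replicate 1). Jejunum against non-irradiated rats had 1 in series 1 at day 4, 1 to 4 with 1 replicate left out (1 without replicate 4), and 2 in series 1 at day 7; day 7 against day 4 had 0 in series 1. The tissue difference had 2 at day 4 with epithelial scaling, 0 in series 2 and 2 with only the groups compared, and 6 at day 7 with DESeq2. Of the wider list, 11 genes were lower with powder in colon at day 4, against 1 with epithelial scaling and 2 without oral vehicle replicate 5; for desmosome genes these were 4, 0 and 0.

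Replicate numbers did not pair libraries: 43 of 126 same-numbered pairs had a correlation over 0.1 in colon and 52 of 126 in jejunum, and 11 of 36 in the injected groups of each tissue. With the replicate block, 35 of 38 called values kept their call. Powder in colon at day 4 then had 2 members called and injected vehicle in colon 2. Colon and jejunum libraries share library numbers: 36 of 66 same-numbered pairs had a correlation over 0.1, and 31 of the 66 colon libraries correlated best with their own number, a hint from the data and not from the labels. With the replicate block by that number all calls between the tissues were kept, and Cldn8 was added at day 7 (4.93, adjusted p = 0.00626). No jejunum library held more than 3 counts of Cldn8, so this value restates its fall in colon. The same holds for its day 7 call with DESeq2 (4.84). Counts near 0, as for Cldn1 in non-irradiated rats and Cldn8 in jejunum, limit the folds that can be given.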
